A study of Mus musculus with 6 samples.

Results

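Neat1, Malat1 and 6 genes of paraspeckle proteins (Sfpq, Nono, Pspc1, Hnrnpk, Rbm14 and Tardbp) were followed in muscle stem cells (MuSCs) of dystrophic mice. These 8 genes, of 22706 in the table, were found by their symbols and had been chosen from results of these same libraries. Their differences between groups are therefore given as descriptions, without p-values, and where the fit over all genes called one of them, the call is named but nothing is supported by it. RNA-seq covered 3 groups with 2 libraries each, all of strain C57BL/6 by the labels. Control mice were wild type. The mdx mice carried the spontaneous Dmd mutation that abolishes functional dystrophin, and the remaining group (genotype "mdx, Sirt6-mKO", here Sirt6mKO/mdx) carried the same Dmd mutation together with a Cre-mediated deletion of the floxed Sirt6 exons. The study's methods describe Cre as driven by the Pax7 promoter and constitutively active, so that it acts in the muscle lineage from development onwards and not only in adult MuSCs, and describe a YFP reporter at ROSA26. They name as sorting routes Integrin-a7 and CD34 staining after depletion of Sca1, CD45 and CD31 positive cells, or a GFP or YFP reporter, and the labels do not say which route gave which library. RNA was total RNA depleted of ribosomal RNA, so RNAs without a poly(A) tail could be counted. The labels give neither age nor sex, the study's legends for these MuSC data describe young adult males, and whether a library pooled animals is not given in the sources used here. The methods call the RNA-seq replicates biological, without saying whether each is an animal, so p-values measure the spread between these libraries.

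Neat1 is a long noncoding RNA on which paraspeckles, nuclear bodies next to nuclear speckles, are built. The gene yields a short polyadenylated isoform and a long isoform, and only the long one can scaffold a paraspeckle. SFPQ, NONO and PSPC1 belong to the DBHS family of RNA-binding proteins, which coat Neat1. HNRNPK favours the long isoform, TARDBP (TDP-43) favours the short one, and RBM14 helps to assemble the body. Malat1, encoded next to Neat1, is an abundant long noncoding RNA of nuclear speckles, where splicing factors gather.

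Both noncoding RNAs lie on the minus strand of chromosome 19 in build GRCm38. Neat1 (ENSMUSG00000092274) spans 5824708 to 5845478 with 20771 exonic bases and Malat1 (ENSMUSG00000092341) spans 5795690 to 5802672 with 6983. Their long isoforms are known to end without a poly(A) tail, in a triple helix of U-rich stretches and an A-rich tract that is left when a tRNA-like RNA is cut off. The ends are shown because rRNA-depleted libraries, unlike poly(A)-selected ones, keep such RNAs. The following are the 100 bases that end the long Neat1 isoform (chr19:5824708-5824807) and the 100 bases that end on the A-rich tract of Malat1 (chr19:5795982-5796081), read on the minus strand from GENCODE release M21 transcripts as DNA letters, with the stretches TTTCTTTT and TTTTGCTTT and the A-rich tract from AAAAAGCAA on in capitals. The run of A letters just before it in Malat1 is left in lower case.
Neat1 3′ end: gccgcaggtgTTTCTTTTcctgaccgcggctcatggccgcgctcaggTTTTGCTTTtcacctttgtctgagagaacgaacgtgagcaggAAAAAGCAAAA
Malat1 3′ end: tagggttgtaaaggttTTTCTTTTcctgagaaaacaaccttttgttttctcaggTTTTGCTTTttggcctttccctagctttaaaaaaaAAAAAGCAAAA
TTTCTTTT, TTTTGCTTT and AAAAAGCAA, which do not overlap each other, were searched on the transcribed strand of all annotated lincRNA genes. All 3 occurred within 100 bases ending on the A-rich one in 2 of 5970 genes (0.034%), namely Neat1 and Malat1, from which the letters had been taken. The annotated Malat1 transcript runs 292 bases past the tract. The tRNA-like RNA that follows Neat1 directly (chr19:5824652-5824707, listed as mascRNA-menRNA) is 56 bases long.
menRNA: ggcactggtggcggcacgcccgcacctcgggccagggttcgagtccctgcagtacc
Its value is listed at 0 in all 6 libraries.

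The short Neat1 isoform ends at position 3172 of the long one and covers 15.3% of its length. Its last 50 bases (chr19:5842307-5842356, minus strand) are shown with AATAAA, the letters of the polyadenylation signal, in capitals, which start 20 bases before the end.
short Neat1 isoform, 3′ end: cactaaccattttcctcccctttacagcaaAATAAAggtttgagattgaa
Reads on the shared bases come from either isoform. The deposited values are per gene, so short and long Neat1 were not told apart.

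The approximate depth was 4404275 to 9743941 reads per library. Rbm14 rested on the fewest reads (54 to 169 per library) and Malat1 on the most (47670 to 136114). Sirt6 was at 41 and 32 (control), 33 and 40 (mdx) and 37 and 30 (Sirt6mKO/mdx-labelled). Its level was thus not seen to be lower in the group labelled as deleted, whose libraries are therefore called Sirt6mKO/mdx-labelled, but per-gene values do not resolve the deleted exons. The study's own checks of the deletion were not analysed here. They include PCR genotyping of sorted MuSCs, by which the paper calls the deletion in Sirt6mKO mice highly efficient, and RT-qPCR of Sirt6 in MuSCs. The MuSC markers Pax7 (2167 to 3236), Myf5 (1669 to 3258), Itga7 (2010 to 3250) and Cd34 (826 to 1262) were high in every library. Some of the list of 10 differed between groups, with Sdc4 and Chrdl2 lowest in mdx and Cdh15, Vcam1 and Itga7 highest there, without overlap. Sdc4 was at 7692 and 6224 (control), 1100 and 1049 (mdx) and 2753 and 2822 (Sirt6mKO/mdx-labelled), and Chrdl2 at 684 and 728, 136 and 137, and 354 and 160. Cdh15 was at 2220 to 2818 in mdx and 1497 to 1640 elsewhere, Vcam1 at 5753 to 7031 against 2413 to 4302, and Itga7 at 3022 to 3250 against 2010 to 2684. Genes of other cells were present as well. Of fibro-adipogenic genes, Col3a1 was at 15579 to 30817, Dpt at 2024 to 3504, Dcn at 858 to 2087 and Pdgfra at 15 to 195. Of endothelial genes, Tek was at 348 to 669 and Pecam1 at 20 to 199, the leukocyte gene Ptprc was at 0 to 19, and the myofibre gene Acta1 was at 421 to 3105. In control, Xist reached 16772 and 12950, against 7 to 34 elsewhere, while Ddx3y reached only 3 and 8 there, against 1024 to 1767, a pattern that goes against the description of the control mice as males. Sex-linked expression therefore moves with every comparison against control and cannot be told apart from genotype there.

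Of the 8 genes, Neat1 was the one that differed most between groups. Its normalized read count (the read count divided by the authors' size factor of the library) was 23246 and 10948 (control), 2420 and 2876 (mdx) and 12938 and 9757 (Sirt6mKO/mdx-labelled). Both mdx libraries lay below all 4 others, whereas the control libraries differed from each other more than the Sirt6mKO/mdx-labelled libraries did and overlapped with them. The means were 17097 ± 8696, 2648 ± 322 and 11348 ± 2249 (SD, n = 2). In bulk samples, fewer cells with much Neat1 and less Neat1 per cell cannot be told apart.

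**Figure D1:**
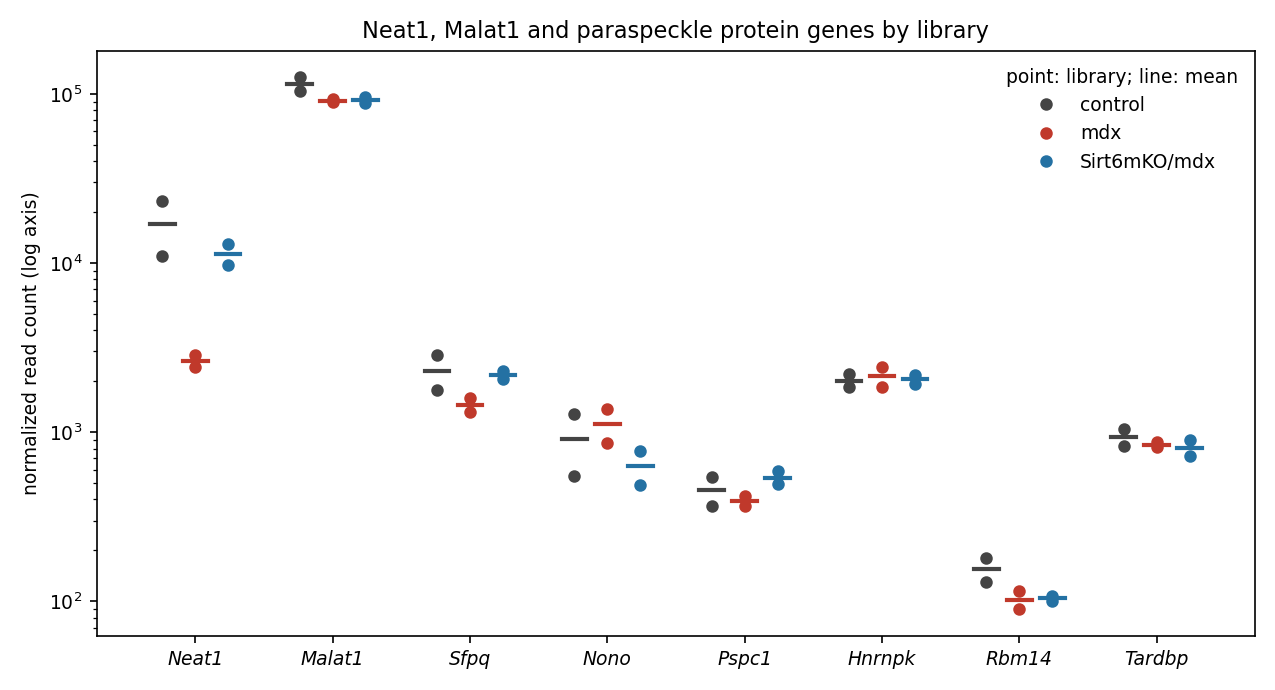
Normalized read count (log axis) of the 8 genes in each library, with a point per library and a line at the mean of the 2 libraries of a group. Neat1 in mdx (2420 and 2876) lies below its values in control and in the Sirt6mKO/mdx-labelled libraries, while Malat1 stays between 88737 and 125097 in all 6.

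On the log2(value + 1) scale, Neat1 was lower in mdx than in control by a log2 fold change of -2.60 (SE 0.42), a 6.05-fold difference. It was higher in the Sirt6mKO/mdx-labelled libraries than in mdx by 2.09 (SE 0.42), a 4.26-fold difference. Between the Sirt6mKO/mdx-labelled libraries and control the log2 fold change was -0.51 (SE 0.42). The standard errors come from limma, fitted on all 6 libraries and 15915 genes with a mean of at least 5. A gene was called at an adjusted p (Benjamini-Hochberg) of at most 0.05 and an absolute log2 fold change of at least 1. In fits that left out a library, a group was left with 1 library, which was assumed to vary like the other groups.

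Neat1 was the only one of the 8 called in mdx against control (1 of 8, beside 14.2% of all genes tested, 6.89% higher and 7.34% lower). It was also the only one called between the Sirt6mKO/mdx-labelled libraries and mdx (1 of 8, beside 8.17% of all genes, 5.62% higher and 2.54% lower). None of the 8 was called between the Sirt6mKO/mdx-labelled libraries and control (0 of 8, beside 7.87% of all genes, 5.19% higher and 2.68% lower). As the genes had been chosen from these contrasts, nothing is read from these counts.

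The Neat1 difference in mdx against control ran from -3.14 without control 2 to -2.05 without control 1. That between the Sirt6mKO/mdx-labelled libraries and mdx ran from 1.89 to 2.29 over the fits that left out a library, but its call was lost without mdx 1, mdx 2, Sirt6mKO/mdx 1 or Sirt6mKO/mdx 2, and also with no minimum mean or with a single prior variance for all genes. Against control it turned from -0.51 to 0.04 without control 1 and moved to -1.05 without control 2.

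Malat1 was among the 12 most abundant genes of every library. Its normalized read count was 125097 and 104495 (control), 89150 and 93300 (mdx) and 95973 and 88737 (Sirt6mKO/mdx-labelled). Both control libraries lay above the other 4, and the mdx and Sirt6mKO/mdx-labelled libraries overlapped. The means were 114796 ± 14568, 91225 ± 2934 and 92355 ± 5117 (SD, n = 2). The log2 fold change was -0.33 in mdx against control, 0.02 between the Sirt6mKO/mdx-labelled libraries and mdx, and -0.31 between the Sirt6mKO/mdx-labelled libraries and control, each with an SE of 1.15. That SE is far above the 0.25 to 0.42 of the other 7 genes and fell to 0.28 with a prior variance that did not follow the mean. With equal sums, where the median of all genes was at -0.59 in both, the Malat1 differences of the Sirt6mKO/mdx-labelled libraries became -0.61 against mdx and -0.91 against control. As a share of the summed values, Malat1 was lower in both Sirt6mKO/mdx-labelled libraries (0.997% and 0.999%) than in any other library. The coefficients of variation between replicates of Malat1 were 12.7%, 3.22% and 5.54%.

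Within a library the ratio of Neat1 to Malat1 does not depend on scaling. As a share of Malat1, Neat1 came to 18.6% and 10.5% (control), 2.71% and 3.08% (mdx) and 13.5% and 11.0% (Sirt6mKO/mdx-labelled). Both mdx libraries were below the other 4, and the remaining groups overlapped. The mean log2 ratio differed by -2.27 between mdx and control (4.82-fold), with a range of -2.68 to -1.86 over fits without a library. It differed by 2.07 (1.93 to 2.22) between the Sirt6mKO/mdx-labelled libraries and mdx, and by -0.20 (-0.61 to 0.22) between the Sirt6mKO/mdx-labelled libraries and control. The pooled SD of the log2 ratio between replicates was 0.37. By rank among all genes, Neat1 stood at 25 and 45 (control), 288 and 177 (mdx) and 77 and 95 (Sirt6mKO/mdx-labelled).

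**Figure D2:**
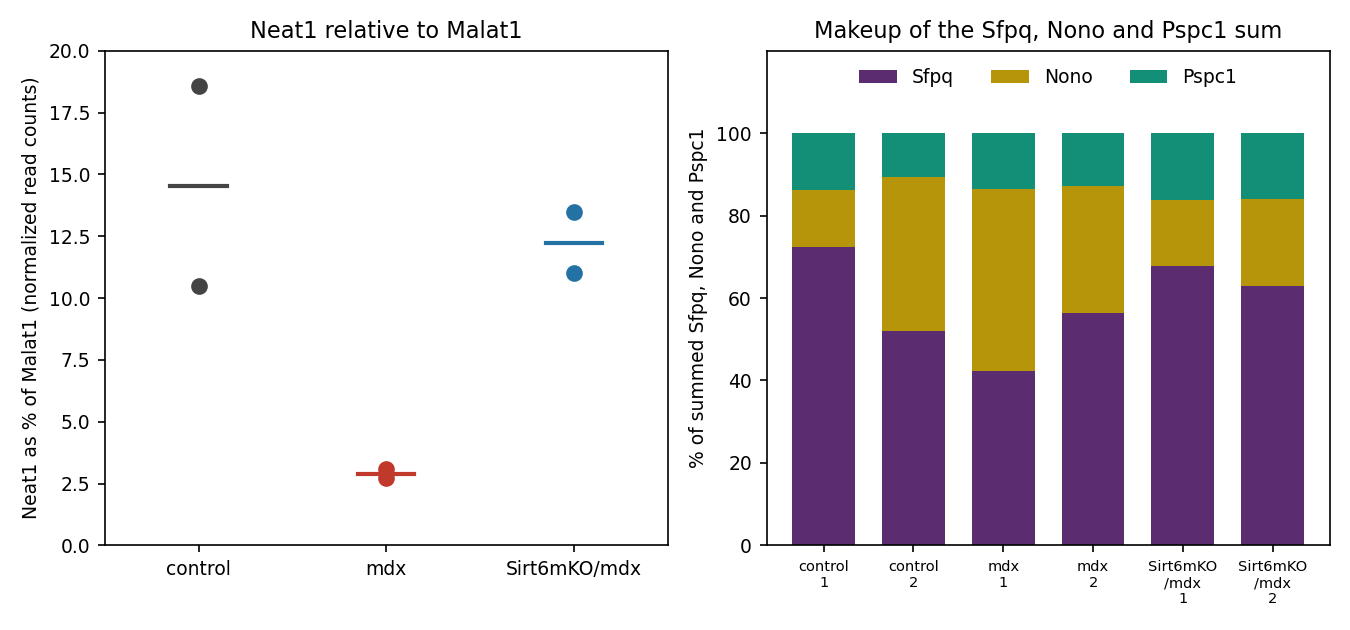
Left, Neat1 as a percentage of Malat1 in each library (points) with the group mean (line). Right, the share of Sfpq, Nono and Pspc1 in their summed normalized read count, a bar per library. Neat1 is at 2.71% and 3.08% of Malat1 in mdx and at 10.5% or more elsewhere, and the Nono share varies from 14.0% to 44.2%.

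The DBHS genes had no common direction. Sfpq (chromosome 4, 127021324 to 127037013), which encodes a splicing factor that is a core paraspeckle protein, was at 2849 and 1777 (control), 1309 and 1591 (mdx) and 2055 and 2308 (Sirt6mKO/mdx-labelled). The mdx libraries were below the other 4. The log2 fold change was -0.64 in mdx against control and 0.59 between the Sirt6mKO/mdx-labelled libraries and mdx (SE 0.29), and -0.05 between the Sirt6mKO/mdx-labelled libraries and control. Without control 1 the first moved to -0.30 and the last to 0.29, and without control 2 to -0.98 and -0.39. Nono (chromosome X, 101429318 to 101448591), whose protein pairs with SFPQ, was at 551 and 1278 (control), 1368 and 868 (mdx) and 486 and 774 (Sirt6mKO/mdx-labelled). Both Sirt6mKO/mdx-labelled libraries were below both mdx libraries, but the control libraries overlapped with both groups, and without control 1 the difference between mdx and control turned from 0.38 (SE 0.36) to -0.23. Between the Sirt6mKO/mdx-labelled libraries and mdx the log2 fold change of Nono was -0.83 (SE 0.36), and between the Sirt6mKO/mdx-labelled libraries and control it was -0.45, which moved to 0.15 without control 2 and to -1.06 without control 1. Nono is X-linked, and its reads in control come from libraries with high Xist.

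Pspc1 (chromosome 14, 56722441 to 56778316), the least abundant of the DBHS genes by group mean, was at 542 and 366 (control), 418 and 365 (mdx) and 492 and 586 (Sirt6mKO/mdx-labelled). The Sirt6mKO/mdx-labelled libraries did not overlap with mdx, and control overlapped with both. The log2 fold changes were -0.19, 0.46 and 0.27 (SE 0.26) in the order mdx against control, Sirt6mKO/mdx-labelled against mdx and Sirt6mKO/mdx-labelled against control. Without control 1 the first turned to 0.09 and the last moved to 0.55, and without control 2 they moved to -0.47 and -0.01. The summed DBHS level was 3942 and 3421 (control), 3095 and 2824 (mdx) and 3033 and 3668 (Sirt6mKO/mdx-labelled), and Sfpq made up 42.3% to 72.3% of it. Neat1 per unit of summed DBHS level was 5.90 and 3.20 (control), 0.78 and 1.02 (mdx) and 4.27 and 2.66 (Sirt6mKO/mdx-labelled). With all libraries scaled to equal sums, the median of all genes shifted by -0.59 between the Sirt6mKO/mdx-labelled libraries and mdx, and the Sfpq and Pspc1 differences there turned to -0.03 and -0.17. The Neat1 difference became 1.46 there and -1.11 against control, and that of Nono became -1.45 against mdx, where it was called under this scaling. Relative to the median of -0.59, the differences against mdx were 0.56 for Sfpq, 0.43 for Pspc1, 2.06 for Neat1 and -0.86 for Nono.

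**Figure D3:**
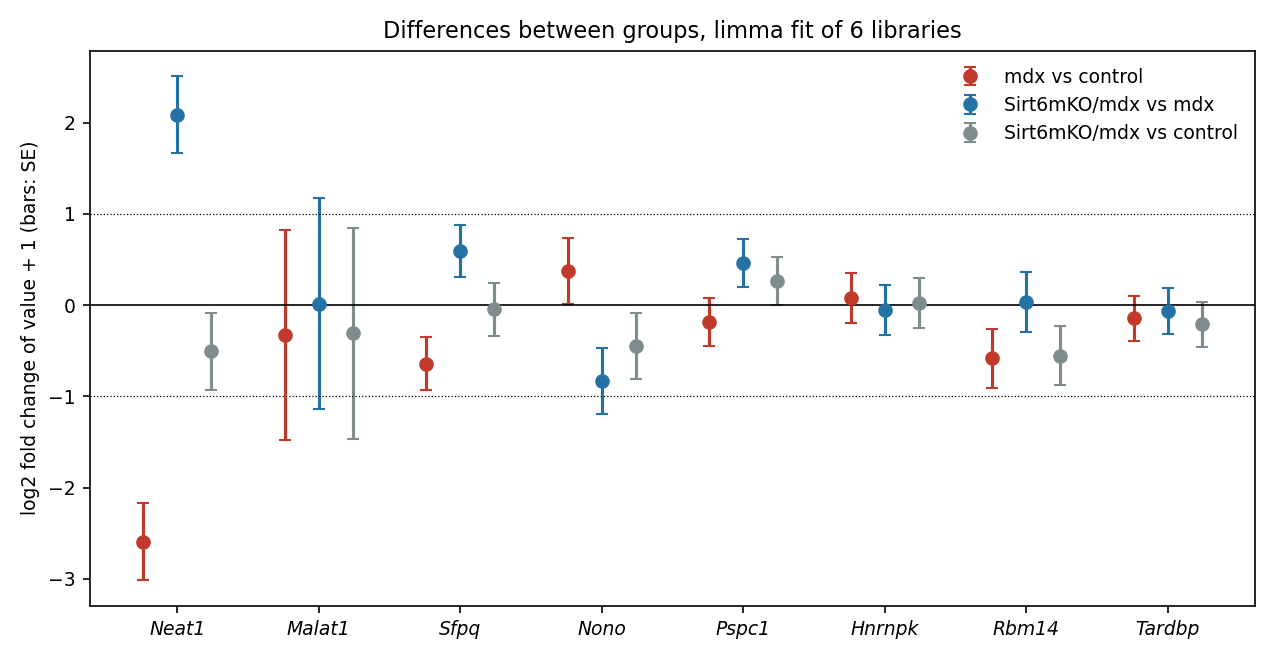
Log2 fold change of value + 1 for the 8 genes in the 3 comparisons, with bars of 1 SE from the limma fit of 6 libraries and dotted lines at the fold change of a call. Neat1 stands at -2.60 and 2.09 in the comparisons with mdx, and the other 7 genes lie between -0.83 and 0.59 in all 3.

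The isoform regulators varied less under the authors' scaling. Hnrnpk (chromosome 13, 58391142 to 58403343) was at 1837 and 2198 (control), 2425 and 1851 (mdx) and 1933 and 2163 (Sirt6mKO/mdx-labelled). Its 3 groups overlapped, and the log2 fold changes lay between -0.05 and 0.08 (SE 0.27). Tardbp (chromosome 4, 148612382 to 148627019) was at 823 and 1051 (control), 812 and 870 (mdx) and 721 and 897 (Sirt6mKO/mdx-labelled), again with overlap and with log2 fold changes of -0.15, -0.06 and -0.21 (SE 0.25). With equal sums the differences of the Sirt6mKO/mdx-labelled libraries became -0.68 against mdx and -0.58 against control for Hnrnpk and -0.69 and -0.81 for Tardbp, beside the median of -0.59. For both, a p above the threshold does not show equal levels.

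Rbm14 (chromosome 19, 4800569 to 4811634) was at 180 and 130 (control), 90 and 115 (mdx) and 107 and 101 (Sirt6mKO/mdx-labelled). The control libraries were above the other 4, with log2 fold changes of -0.58 and -0.55 against control (SE 0.33) and 0.03 between the Sirt6mKO/mdx-labelled libraries and mdx. With equal sums the second of these became -1.15 and was called, beside a median of all genes of -0.59. Rbm14 shares 18.6% of its exonic bases with Gm21992 on the same strand, and Tardbp shares 23.3% with Masp2 on the opposite strand. The use of strand in counting is not given in the sources used here, and reads on several genes were left out, so both values are uncertain. Hnrnpk is 99.2% identical to Gm7964 over 1378 bases, and Gm7964 was at 22 to 41.

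Per kilobase of exon, the level of Malat1 stood far above that of the other genes in all 3 groups (16439, 13064 and 13226 normalized reads per kb in control, mdx and the Sirt6mKO/mdx-labelled libraries). In control it was followed by Neat1 (823), Sfpq (488), Hnrnpk (312), Nono (209), Tardbp (120), Pspc1 (79.2) and Rbm14 (39.6). Libraries overlapped between Neat1 and Sfpq, between Hnrnpk and Nono and between Nono and Tardbp in that order. In mdx Neat1 (127) came after Hnrnpk (331), Sfpq (306) and Nono (256), with no overlap between Nono and Neat1 or between Neat1 and Tardbp (108). In the Sirt6mKO/mdx-labelled libraries Neat1 (546) again followed Malat1 and overlapped with Sfpq (460). Neat1 was divided by the length of its long isoform, so its level per kb would be higher if reads came mostly from the short one.

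The other paraspeckle proteins, a list of 28 genes that leaves out the 8 above and was likewise drawn up with results known, were all tested. In mdx against control 1 of 28 was called (0 higher, 1 lower), beside 14.2% of all genes, with a median log2 fold change of -0.07 beside 0.00 for all genes. Between the Sirt6mKO/mdx-labelled libraries and mdx 3 of 28 were called (2 higher, 1 lower), beside 8.17% of all genes, with a median of -0.13 beside 0.02. Against control, 2 of 28 were called in the Sirt6mKO/mdx-labelled libraries (1 higher, 1 lower), beside 7.87%, with a median of -0.22 beside 0.01. Nothing particular to the list is read from these counts. With equal sums, where the median of all genes was at -0.59, the list medians of the Sirt6mKO/mdx-labelled libraries became -0.75 against mdx and -0.82 against control.

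Zfp335, which encodes a zinc finger protein, was, like Neat1, lowest in mdx. It was at 248 and 184 (control), 75 and 124 (mdx) and 262 and 216 (Sirt6mKO/mdx-labelled), so that both mdx libraries lay below the other 4. It fell in mdx (log2 fold change -1.14, SE 0.32, limma with Benjamini-Hochberg adjusted p 0.0244) and was higher by 1.29 (SE 0.32, adjusted p 0.0213) in the Sirt6mKO/mdx-labelled libraries than in mdx. Hnrnph1, encoding a splicing regulator, was at 3810 and 2991, 2584 and 2662, and 5443 and 5373 in the same order. It was higher in the Sirt6mKO/mdx-labelled libraries than in mdx by 1.04 (SE 0.30, limma adjusted p 0.0397), the highest of its 3 groups.

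Rbm12, encoding an RNA-binding protein, was at 214 and 159 (control), 145 and 212 (mdx) and 82 and 78 (Sirt6mKO/mdx-labelled). It was lower there than in mdx (log2 fold change -1.12, SE 0.32, limma adjusted p 0.0409) and than in control (-1.20, SE 0.32, adjusted p 0.0306). Cirbp, encoding the cold-inducible RNA-binding protein, was at 287 and 167 in control and 639 and 462 in the Sirt6mKO/mdx-labelled libraries, a rise of 1.31 (SE 0.29, limma adjusted p 0.0124), with 386 and 371 in mdx. These calls were lost in some fits that left out a library. Such fits also have fewer libraries to estimate the spread, so a lost call alone does not show dependence on that library. The 3 against mdx in the Sirt6mKO/mdx-labelled libraries were lost when any 1 of the 4 libraries compared was left out, that of Rbm12 against control when any 1 of the 6 was left out, that of Cirbp without control 2, Sirt6mKO/mdx 1 or Sirt6mKO/mdx 2, and that of Zfp335 in mdx without control 1, mdx 1 or Sirt6mKO/mdx 2. The log2 fold changes without a library ran from -1.50 to -0.78 and 0.93 to 1.65 for Zfp335, 1.02 to 1.07 for Hnrnph1, -1.40 to -0.85 and -1.41 to -0.98 for Rbm12 and 0.92 to 1.70 for Cirbp. With equal sums, where the median of all genes shifted by -0.59, the higher calls of Hnrnph1 (0.42) and Zfp335 (0.67) against mdx and of Cirbp (0.70) against control were lost, and that of Hnrnph1 was also lost with equal sums without the 100 most abundant genes (0.92).

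Nuclear speckle proteins, the neighbours of Malat1 in the nucleus, were examined as a list of 18 genes, all tested. In mdx against control 3 of 18 were called (1 higher, 2 lower), beside 14.2% of all genes, with a median log2 fold change of -0.37 beside 0.00 for all genes. Against mdx, 1 of 18 was called in the Sirt6mKO/mdx-labelled libraries (higher), beside 8.17%, with a median of 0.29 beside 0.02. Against control, 2 of 18 were called in the Sirt6mKO/mdx-labelled libraries (1 higher, 1 lower), beside 7.87%, with a median of -0.08 beside 0.01. Again, nothing particular to the list is read from the counts. The summed level of the list was 21037 to 22578 in control, 15711 to 18170 in mdx and 21127 to 23678 in the Sirt6mKO/mdx-labelled libraries, with mdx below the others. By the list median, at 790 and 847.5 (control), 748 and 853 (mdx) and 836 and 890 (Sirt6mKO/mdx-labelled), the groups overlapped. With equal sums, where the median of all genes was at -0.59, the median of 0.29 turned to -0.33.

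Srsf5, which encodes an SR splicing factor, was at 2533 and 2127 (control), 1186 and 935 (mdx) and 3086 and 2321 (Sirt6mKO/mdx-labelled). It fell in mdx (log2 fold change -1.14, SE 0.27, limma adjusted p 0.0106) and was higher in the Sirt6mKO/mdx-labelled libraries than in mdx by 1.34 (SE 0.27, adjusted p 0.00701), with both mdx libraries below the other 4. U2af1, encoding the small subunit of the factor that reads the 3′ splice site, went from 258 and 278 in control to 122 and 121 in mdx (log2 fold change -1.13, SE 0.28, limma adjusted p 0.0132). Pnn, encoding pinin, went from 166 and 286 in control to 376 and 528 in mdx (1.03, SE 0.30, limma adjusted p 0.0279).

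Snrnp70, encoding a protein of the splicing particle that reads the 5′ splice site, was at 699 and 730 in control and 1630 and 1299 in the Sirt6mKO/mdx-labelled libraries, a rise of 1.03 (SE 0.24, limma adjusted p 0.0168). Rnps1, encoding a protein tied to the exon junction complex, was at 160 and 223 in control and 48 and 110 in the Sirt6mKO/mdx-labelled libraries, and was lower there (log2 fold change -1.36, SE 0.39, limma adjusted p 0.04). Of these calls, those of Srsf5 were lost in mdx without control 1 or mdx 2, and in the Sirt6mKO/mdx-labelled libraries without mdx 2 or either Sirt6mKO/mdx-labelled library. That of U2af1 was lost without mdx 1 or mdx 2, that of Pnn without control 1, mdx 1, mdx 2 or Sirt6mKO/mdx 2, that of Snrnp70 when any 1 of the 4 libraries compared was left out and that of Rnps1 when any 1 of the 6 was. Without a library the log2 fold changes ran from -1.31 to -0.97 and 1.14 to 1.55 for Srsf5, -1.19 to -1.08 for U2af1, 0.64 to 1.42 for Pnn, 0.86 to 1.19 for Snrnp70 and -1.95 to -0.77 for Rnps1. With equal sums the higher calls of Srsf5 (0.72) and Snrnp70 (0.42) in the Sirt6mKO/mdx-labelled libraries were lost, as was that of Pnn in mdx (1.05), and with equal upper quartiles those of Pnn (0.99) and Snrnp70 (0.997) were lost. The Rnps1 call was lost with a pseudocount of 0.1.

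**Figure D4:**
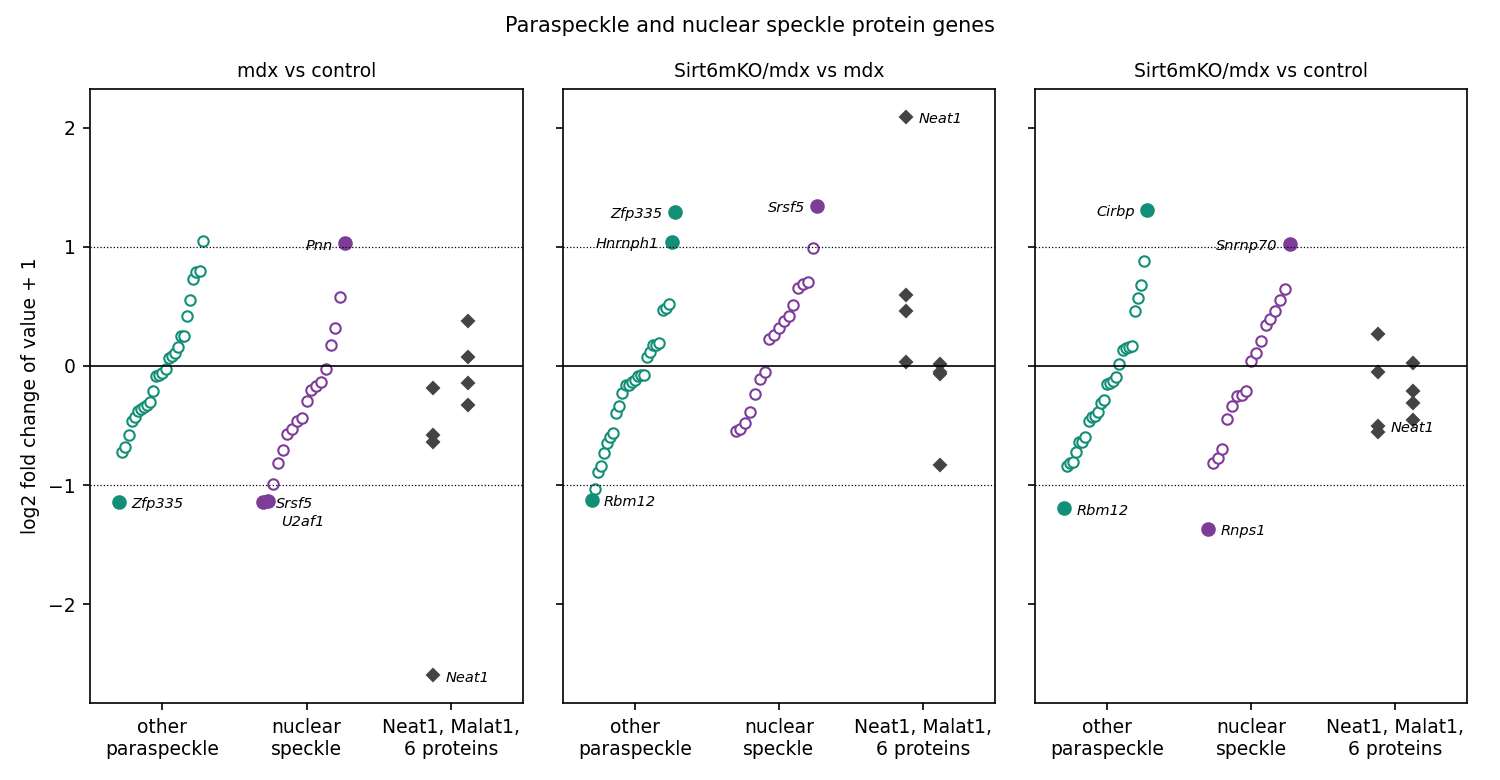
Log2 fold change of value + 1 of 28 other paraspeckle protein genes, 18 nuclear speckle protein genes (circles, filled where called by limma and then named) and the 8 genes described above (diamonds) in the 3 comparisons. Dotted lines mark the fold change of a call. Neat1 at -2.60 and 2.09 lies outside the range of both lists in the comparisons with mdx, and called genes of the lists lie between -1.36 and 1.34.

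Immediate early genes moved in the same direction as Neat1. This list was likewise drawn up with results of these data known, and nothing is read from its counts of calls. Their list of 12 genes summed to 70584 to 76392 in control, 9239 to 11187 in mdx and 61539 to 61863 in the Sirt6mKO/mdx-labelled libraries. All 12 were called lower in mdx than in control (beside 7.34% of all genes) and all 12 higher in the Sirt6mKO/mdx-labelled libraries than in mdx (beside 5.62%), and 2 of 12 were called lower in the Sirt6mKO/mdx-labelled libraries than in control (beside 2.68%). With a single prior variance for all genes the 12 calls over mdx were all lost and those in mdx against control were kept, and without a Sirt6mKO/mdx-labelled library 10 or 11 of the calls over mdx remained. Of the calls against control none was left with a single prior variance, no minimum mean, or without control 2 or either Sirt6mKO/mdx-labelled library, and 4 were made with equal sums. These genes respond within minutes to stimulation and to tissue dissociation, and their part in the Neat1 values was not tested. Marker lists of other cells, as sums over the list, gave 2030 to 5406 for myofibre genes in mdx against 4795 to 10183 in the Sirt6mKO/mdx-labelled libraries and 7059 to 7552 in control. Fibro-adipogenic genes gave 31981 to 39032 in mdx against 21323 to 28822 and 20887 to 27586, smooth muscle and pericyte genes 3515 to 3528 against 1388 to 2046 and 1470 to 2619, and endothelial genes 440 in both mdx libraries against 639 to 661 and 780 to 923. The fibro-adipogenic sums rested mostly on Col3a1, the smooth muscle sums on Acta2 and the endothelial sums on Tek. Tek was at 669 and 631 (control), 379 and 348 (mdx) and 503 and 469 (Sirt6mKO/mdx-labelled). Pecam1, Cdh5 and Kdr were also lower in mdx than in control, and Vwf was higher (33 and 37 against 18 and 28). Emcn and Cldn5 overlapped. Mylpf (1491 and 341 in mdx, 911 and 658 in control), Actn3 and Myh4 overlapped between mdx and control. The other myofibre genes were lower in mdx. The medians over the list, by library, were 1164 and 461 (mdx), 726 and 424.5 (Sirt6mKO/mdx-labelled) and 358 and 472 (control) for fibro-adipogenic genes, and 93 and 44, 184 and 115, and 69 and 124 for smooth muscle and pericyte genes, so that by the median mdx and control overlapped in both lists. Leukocyte genes gave 91 to 107 in mdx, 192 to 216 in the Sirt6mKO/mdx-labelled libraries and 127 to 168 in control, with Ptprc at 0 in both control libraries. Within that list Cd68 was at 86 and 88 (control) and 30 and 26 (mdx), while Lyz2 went the other way, at 0 and 14 (control) and 47 and 26 (mdx), and the list medians of control (10 and 20.5) and mdx (9.5 and 15) overlapped. Schwann genes were low, at 57 to 73 in mdx, 23 to 45 in the Sirt6mKO/mdx-labelled libraries and 46 to 53 in control. Erythroid genes were also low, at 7 to 14, 39 to 91 and 19 to 56 in the same order. MuSC genes summed to 19869 to 23556 in mdx, 19122 to 20743 in the Sirt6mKO/mdx-labelled libraries and 24893 to 25411 in control. Without Sdc4 the sums were 17201 and 19187 (control), 22456 and 18820 (mdx) and 16369 and 17921 (Sirt6mKO/mdx-labelled), so that mdx and control overlapped. The part of these cells in the Neat1 values was not tested.

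The genes whose pattern over the 6 libraries was most like that of Neat1 were Akap2, Sf1, Relb, Atxn7l3 and Larp1b, by Pearson's r of log2(value + 1) among 9666 genes with a mean of at least 50. Their r was 0.999, 0.997, 0.997, 0.996 and 0.996. Akap2 was at 284 and 79 (control), 9 and 12 (mdx) and 104 and 71 (Sirt6mKO/mdx-labelled), and Sf1, which encodes a splicing factor that reads the branch point, was at 2267 and 1514, 693 and 763, and 1631 and 1312. For Malat1 the closest were Hr, Slc35d1, Ppp4r1, Mfsd8 and Ctdspl, with r of 0.989, 0.985, 0.984, 0.982 and 0.979. These are descriptions over 6 libraries that share the scaling, and are the highest of 9666 coefficients.

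Around the locus, 18 other tested genes lay within 200 kb of Neat1 or Malat1. In mdx against control 2 of 18 were called, beside 14.2% of all genes. Between the Sirt6mKO/mdx-labelled libraries and mdx 3 of 18 were called, beside 8.17%, and between the Sirt6mKO/mdx-labelled libraries and control 1 of 18, beside 7.87%. The medians over the 18 were -0.31, 0.23 and 0.11 in the 3 comparisons, beside 0.00, 0.02 and 0.01 for all genes. Frmd8, whose start site lies 29.8 kb upstream of that of Neat1, was at 157 and 130 (control), 147 and 125 (mdx) and 197 and 233 (Sirt6mKO/mdx-labelled), and was not called in any of the 3. Rnaseh2c, Kat5, Sipa1, Pcnxl3, Kcnk7, Sssca1, Ltbp3, Slc25a45, Tigd3, Dpf2, Cdc42ep2 and Pola2 were likewise not called in any. Among them the log2 fold change ran from -0.61 (Pcnxl3) to 1.89 (Cdc42ep2, at 9 and 9 in control and 34 and 38 in mdx, SE 0.81) in mdx against control, and from -2.12 (Cdc42ep2) upwards, with Kcnk7 highest (at 5 and 9 in mdx and 17 and 15 in the Sirt6mKO/mdx-labelled libraries, SE 1.02), between the Sirt6mKO/mdx-labelled libraries and mdx. Malat1 starts 42.8 kb downstream.

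Rela, encoding the p65 subunit of NF-kB and starting 208 kb downstream of the Neat1 start, was at 915 and 603 (control), 221 and 223 (mdx) and 475 and 430 (Sirt6mKO/mdx-labelled). It fell in mdx (log2 fold change -1.74, SE 0.26, limma adjusted p 0.000397) and was higher in the Sirt6mKO/mdx-labelled libraries than in mdx by 1.02 (SE 0.26, adjusted p 0.0252), with no overlap between the 3 groups. The second of these calls was lost without mdx 1, mdx 2, Sirt6mKO/mdx 1 or Sirt6mKO/mdx 2 (0.95 to 1.09 without a library), and the first ran from -2.04 to -1.44 without a library. Capn1, encoding the calpain 1 protease, was at 69 and 46 (control), 246 and 139 (mdx) and 116 and 97 (Sirt6mKO/mdx-labelled), and rose in mdx by 1.70 (SE 0.37, limma adjusted p 0.00645), a call lost without mdx 1, where it was 1.29.

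Map3k11 and Ehbp1l1, both on the Rela side, were called higher in the Sirt6mKO/mdx-labelled libraries than in mdx. Map3k11, encoding a MAP kinase kinase kinase, was at 101 and 136 in mdx and 348 and 251 in the Sirt6mKO/mdx-labelled libraries (1.33, SE 0.31, limma adjusted p 0.0153). Ehbp1l1 was at 172 and 251 in mdx, 748 and 529 in the Sirt6mKO/mdx-labelled libraries and 349 and 240 in control (1.59 over mdx, SE 0.29, limma adjusted p 0.00383, and 1.12 over control, adjusted p 0.0281). The Map3k11 call was lost when any 1 of the 4 libraries compared was left out (1.09 to 1.56). The Ehbp1l1 call over mdx was lost without mdx 1 or Sirt6mKO/mdx 1 (1.32 to 1.86), and that over control without control 2, mdx 2, Sirt6mKO/mdx 1 or Sirt6mKO/mdx 2 (0.85 to 1.39). With equal sums the higher calls of Rela (0.40), Map3k11 (0.70) and Ehbp1l1 (0.97 over mdx and 0.51 over control) in the Sirt6mKO/mdx-labelled libraries were lost, and that of Rela was also lost with equal sums without the 100 most abundant genes (0.90). With a single prior variance for all genes no neighbour was called, and with no minimum mean the Rela call in mdx against control was the only one of these neighbour calls left.

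**Figure D5:**
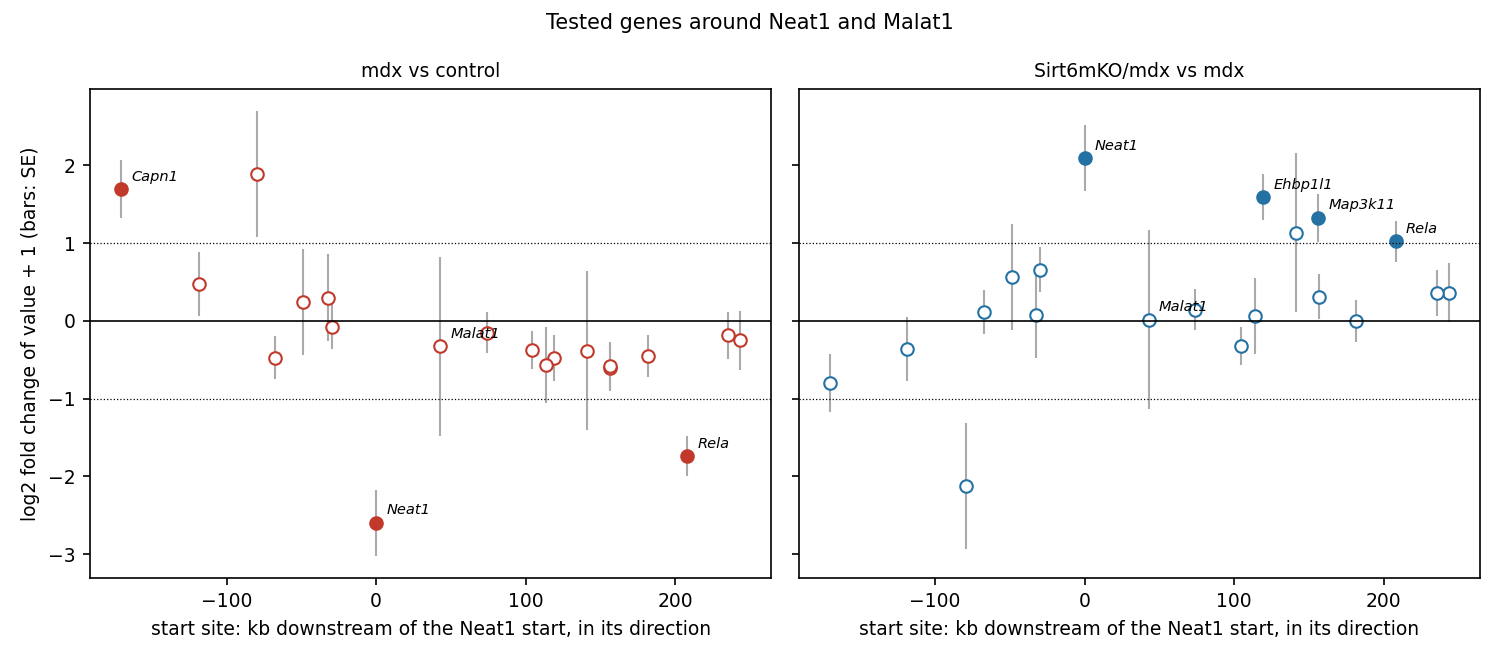
Log2 fold change of value + 1 (bars, 1 SE) of the tested genes within 200 kb of Neat1 or Malat1, by the distance of each start site from that of Neat1 in kb (positive values lie downstream, in the direction of Neat1 transcription), for 2 of the comparisons. Filled points were called by limma and are named, with Malat1. Neat1 at -2.60 and 2.09 has the lowest and highest value of the called genes, and on the left Rela at -1.74 and Capn1 at 1.70 are the other called genes.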

How the data were processed

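RNA-seq of MuSCs was analysed in 6 libraries of 3 groups. Following the submitters' processing notes and the methods, the authors checked reads with FastQC 0.10.1, trimmed them with Reaper, aligned them to GRCm38 with STAR 2.4.2a and counted exon reads per gene with featureCounts 1.4.5-p1, leaving out reads on several genes or places. The STAR version is that of the notes, and the methods name another. The deposited values are whole numbers whose gaps show that the authors divided counts by a size factor per library, as their DESeq2 does, and rounded, so their unit was taken as a score (normalized read count). Tests that need raw counts were therefore not run. Approximate reads are values times size factors recovered from the gaps (0.537 to 1.53).

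The values of 15915 genes with a mean of at least 5 were tested as log2(value + 1) by limma (version 3.58.1, R 4.3.3), with a variance prior following the mean and all 6 libraries in 1 fit without a block. This scale understates changes of low genes. All p-values are two-sided and adjusted by Benjamini-Hochberg over all genes. The test was tested on data simulated with the same dispersion for every gene, which does not address the dependence of calls on the variance prior. The members, lists and rules were chosen with earlier results of these data known. By rule, the text names all 8 genes, every called gene of the paraspeckle and speckle lists, the 5 genes most like Neat1 and Malat1, and the tested neighbours within 200 kb, of which 1 is not reported here. Markers and the genes given beside the results were named after their values were seen. Replicate numbers in the labels do not state pairing. Alternatives changed the pseudocount, minimum mean, scaling, variance prior, block and libraries.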

Additional observations from a re-analysis of the deposited data

How the results depend on the processing

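Counts of called genes are given as mdx against control, Sirt6mKO/mdx-labelled against mdx and Sirt6mKO/mdx-labelled against control. Over all genes they were 2265, 1300 and 1253. They were 989, 168 and 221 with no minimum mean, 541, 0 and 87 with a single prior variance in limma (4204, 3156 and 3157 genes had an unadjusted p under 0.05), and 2234, 3415 and 3150 with equal sums. With equal sums the median of all genes shifted by -0.59 in both comparisons of the Sirt6mKO/mdx-labelled libraries, and the 895 higher and 405 lower calls against mdx became 478 and 2937, and the 826 and 427 against control 454 and 2696. With equal sums without the 100 most abundant genes those against mdx became 752 and 661. Without a library the counts ran from 921 to 2326, 252 to 1541 and 212 to 1416. For the other paraspeckle proteins (1, 3 and 2 called), no minimum mean and a single prior variance left 0, 0 and 0 each, equal sums gave 8 against mdx and 11 against control in the Sirt6mKO/mdx-labelled libraries, and leaving out a library gave 0 to 1, 0 to 3 and 0 to 2. For nuclear speckle proteins (3, 1 and 2 called), no minimum mean left 1, 0 and 0, a single prior variance 0, 0 and 0, equal sums gave 3 and 5 in the Sirt6mKO/mdx-labelled comparisons, a pseudocount of 0.1 and equal upper quartiles each left 1 of the 2 against control, and leaving out a library gave 0 to 3, 0 to 1 and 0 to 1. The cause of these changes was not tested. Same-numbered libraries of different groups had correlations of their deviations from the group mean of -0.13, 0.12 and 0.01. With 2 libraries per group these values cannot show whether the numbers pair the libraries. With the replicate block the counts were 2415, 1510 and 1404. Of the genes followed, Rbm14 rested on the fewest reads, at 54 to 169 per library, and every gene rested on 2 libraries per group. Which of these limits a gene more was not tested.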
